A study of Mus musculus with 2 samples.

Results

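The Mir379 to Mir410 cluster is a run of microRNA (miRNA) genes in the imprinted Dlk1-Dio3 region of mouse chromosome 12, examined here in the adrenal gland. Its members were chosen by position alone: all miRNA genes of the GENCODE M21 annotation on the plus strand within a fixed window (mm10), 39 of the 2202 miRNA genes in the files. They run from Mir379, which starts at base 109709060, to Mir3072, which ends at base 109747960, a stretch of 38.9 kb. Mir3072 lies past Mir410 and was kept because the window holds it. Small RNA below 30 nt was sequenced from adrenal gland total RNA. The mice were B6CASTF1/J males of 2 months, F1 hybrids between a common laboratory strain and the wild-derived CAST strain. The series holds 1 group of 2 libraries, replicate 1 from animal 3 and replicate 2 from animal 4, and no treatment, second tissue or second age. The counts therefore answer how much of each member was present and how alike the libraries of 2 animals were, and nothing is compared between conditions. Each animal gave 1 library, so differences between animals, dissections, library preparations and sequencing runs cannot be told apart. Differences between the animals are meant in this sense throughout.

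In the Dlk1-Dio3 region, imprinting means that only 1 parental chromosome is active for a given gene. The miRNAs of this cluster, like the long non-coding RNAs beside them, are known to be expressed from the chromosome inherited from the mother, and they are thought to be cut from long shared transcripts. The adult brain is the tissue best known for them, and in neurons the cluster is a known target of the transcription factor Mef2. A miRNA is cut from a hairpin whose arms give a 5p and a 3p mature miRNA. Bases 2 to 8 of the mature miRNA, its seed, pair with target messenger RNAs. The deposited counts are per hairpin: they separate neither the arms nor the parental alleles.

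Most counts of the cluster came from 4 hairpins, so both arms of each are shown first, with the seed in capitals. The sequences are those of RefSeq (GRCm38.p6), whose table held 71 mature sequences for 38 of the 39 members. Gm27379 had none, and only 33 members had 2, so the seeds counted below are not a complete list.
miR-379-5p: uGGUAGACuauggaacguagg
miR-379-3p: uAUGUAACaugguccacuaacu
miR-411-5p: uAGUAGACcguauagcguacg
miR-411-3p: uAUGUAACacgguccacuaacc
miR-541-5p: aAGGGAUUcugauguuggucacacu
miR-541-3p: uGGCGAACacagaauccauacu
miR-382-5p: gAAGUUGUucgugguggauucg
miR-382-3p: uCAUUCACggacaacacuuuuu
The seeds of the 5p arms of Mir379 and Mir411 differ, and the seeds of their 3p arms are the same. The 71 mature sequences held 65 different seeds, and 6 seeds were shared by a pair of members each.

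The cluster as a whole took nearly the same part of the adrenal miRNA counts in both animals. It held 165401 counts in replicate 1 and 100387 in replicate 2. As a share of the counts at miRNA genes this was 2.88% in replicate 1 (2.86 to 2.89 by the exact Clopper-Pearson method at 95%) and 3.01% in replicate 2 (2.99 to 3.03), or 2.94% ± 0.0965 (mean ± SD, n = 2). The libraries thus differed by more than counting error, but by little. Replicate 1 was the deeper library, with 5752428 counts at miRNA genes against 3333149, and a count of 0 allowed up to 0.522 CPM (counts per 1000000 counts at miRNA genes) there and 0.900 CPM in replicate 2. No molecular identifiers are described for the reads, so intervals and limits cover counting error only. The files list 26.2% and 28.8% of all reads as aligned to several places, in a row apart from the genes.

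Both libraries held miRNAs known from several cell types and from other tissues. Detected here means 2 CPM or more in both libraries. The list for neuroendocrine cells (Mir375 and the Mir7 genes, 4 of 4 detected) reached 72802 CPM in all in replicate 1 and 51447 in replicate 2. Endothelial Mir126a had 69154 and 65133 CPM, and the smooth muscle list (2 of 2 detected) 32759 and 33318 CPM. The red blood cell list (Mir451a, Mir144 and Mir486, 3 of 3 detected) differed most, at 22813 CPM in replicate 1 but only 901 in replicate 2. With those 3 genes left out of the total, the share of the cluster was 2.94% in replicate 1 and 3.01% in replicate 2. White blood cell genes (4 of 4 detected) summed to 1434 and 1777 CPM, brown fat genes (4 of 4) to 1867 and 1970 CPM, liver Mir122 to 690 and 1331 CPM, and kidney genes (3 of 4) to 92.5 and 137 CPM. Of the neuron list 1 of 7 genes was detected, with a sum of 405 and 530 CPM. Its Mir124a-1, Mir124a-2, Mir124a-3, Mir9-1 and Mir9-2 were at 0, and these are copied genes, whose reads can align to several places. No list for the steroid-producing cortex was used. In whole glands, fewer cells of a type and less RNA per cell cannot be told apart.

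Of the 39 members, 33 were detected, and these 33 were also the members with 10 or more counts in mean, which could be tested. The cluster thus supplied 8.87% of the 372 detected miRNA genes of the gland. The median level of a detected member was 161 CPM in replicate 1 and 186 in replicate 2, beside 80.6 and 92.9 CPM over all detected miRNA genes. The mature sequences of the members in RefSeq were 19 to 25 bases long, so CPM were not divided by hairpin length. The other 6 members were not detected. Mir1197, Mir654, Mir453 and Gm27379 had 0 counts in both libraries, Mir758 had 10 and 3, and Mir544 had 1 and 2.

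**Figure D1:**
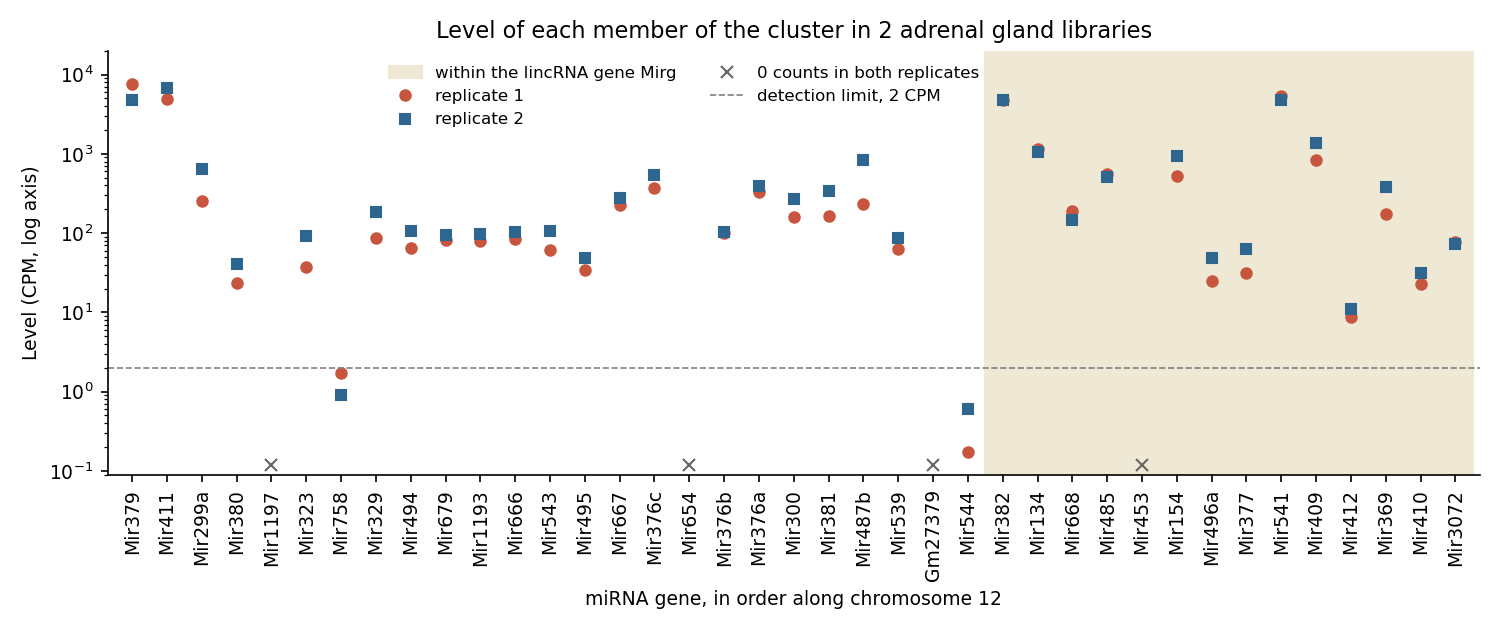
Level of each of the 39 members in CPM (log axis), in order along the chromosome, with replicate 1 as circles and replicate 2 as squares. Mir379 and Mir411 at the left and Mir382 and Mir541 inside the shaded lincRNA gene stand above all other members, and 4 members have 0 counts in both libraries.

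The levels were very uneven along the cluster. The 4 highest members, Mir379, Mir411, Mir541 and Mir382, held 78.9% of its counts in replicate 1 and 70.1% in replicate 2. With Mir409, the 5 highest by their mean CPM held 81.8% and 74.7%, or 78.3% ± 5.09 (mean ± SD, n = 2). The highest and the lowest detected member lay 9.73 log2 units apart in replicate 1 and 9.23 in replicate 2, which is 847-fold and 602-fold. The lowest was Mir412 in both, at 8.87 and 11.1 CPM. Mir412 lies 52 bases past Mir409, which had 94.1 times and 124 times its CPM, so hairpins nearly side by side were counted at very different levels. Hairpins next to each other were still somewhat closer in level than others: adjacent detected members differed by a median of 1.65 log2 units in replicate 1 and 1.55 in replicate 2, beside 2.21 and 2.30 over all pairs of detected members. This is a description of 1 cluster, with no test.

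Mir379, the first hairpin of the cluster, stood at 7513 CPM in replicate 1 and at 4841 CPM in replicate 2. Mir411, which starts 1049 bases past its end, had 4919 and 6686 CPM. Mir541 (chr12:109742409-109742498, in an intron of Mirg) had 5424 and 4804 CPM, and Mir382 (chr12:109733771-109733846, partly in an exon of Mirg) had 4845 and 4777 CPM. Mirg is the long non-coding RNA gene that holds the last 14 members on its own strand. The order of the 4 differed between the libraries. Mir379 came first in replicate 1, at 1.53 times Mir411, and Mir411 came first in replicate 2, at 1.38 times Mir379. Mir541 and Mir382 were 1.12-fold apart in replicate 1 and 1.01-fold in replicate 2. Mir379, Mir541 and Mir382 kept this order in both animals, though by little in replicate 2, and the place of Mir411 among them changed. With 2 animals the order of the 4 is not settled. Among all miRNA genes Mir379 ranked 26 and 34, and Mir411 ranked 33 and 28.

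**Figure D2:**
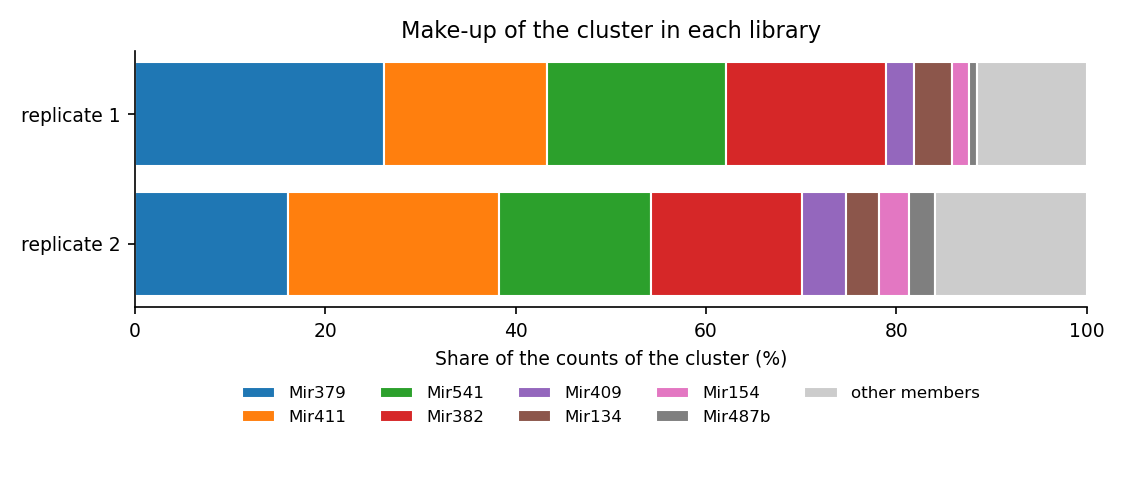
Share of the counts of the cluster taken by its 8 highest members and by all others, as stacked bars that add to 100% in each library. Mir379 takes 26.1% in replicate 1 and 16.1% in replicate 2, and Mir411 takes 17.1% and 22.2%.

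The next members down were also a mixed group between the animals. Mir409 had 834 CPM in replicate 1 and 1377 in replicate 2, and Mir134 had 1147 and 1060 CPM, so their means of 1105 and 1103 CPM cannot be ranked. miR-134 is known from neurons, where it represses the kinase Limk1 in dendrites. Mir154 had 526 and 949 CPM, Mir487b 233 and 834 CPM, and Mir485, known in neurons as a repressor of the synaptic vesicle protein SV2A, 556 and 508 CPM. The animals were close at Mir134 and Mir485 and far apart at Mir487b. Of the 33 detected members 13 lay between 100 and 1000 CPM in mean, 6 above and 14 below.

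Between Mir411 and the start of Mirg, 18 detected members ran at low to middling levels, from 23.8 CPM (Mir380) to 367 CPM (Mir376c) in replicate 1 and from 40.5 CPM (Mir380) to 834 CPM (Mir487b) in replicate 2. Together they held 8.55% of the counts of the cluster in replicate 1 and 14.5% in replicate 2. Mir494 had 65.5 and 107 CPM. Its neighbours Mir679 and Mir1193, only 20 bases apart, had nearly equal counts, 468 and 463 in replicate 1 and 316 and 325 in replicate 2. Mir666 had 488 and 341 counts, and Mir667 1310 and 921. Mir543 had 61.7 and 107 CPM, Mir495 34.1 and 48.3 CPM, Mir329 86.7 and 186 CPM, Mir323 36.9 and 90.9 CPM, and Mir539 63.8 and 87.0 CPM. Mir300 had 161 and 268 CPM and Mir381 164 and 341 CPM. All 18 had lower CPM in replicate 1, on a scale where 64.8% of all tested miRNA genes did.

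The 14 members within Mirg held 48.2% of the counts of the cluster in replicate 1 and 47.3% in replicate 2. Of these hairpins 4 lay wholly in an annotated exon of Mirg, 5 in part and 5 in an intron. The highest, Mir541, lay in an intron and Mir382 partly in an exon, so high levels occurred in both. Mir668 had 189 and 146 CPM, Mir369 174 and 387 CPM, Mir377, studied for its effect on fibronectin in the kidney, 31.6 and 63.6 CPM, and Mir496a had 144 and 160 counts. Mir410, the last gene of the cluster's name, had 22.6 and 31.2 CPM, and Mir3072 77.4 and 72.0 CPM. The bookends of the cluster's name thus differed greatly: Mir379 was among its highest members and Mir410 among its lowest.

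Members alike in sequence could be counted at very different levels. miR-1193-5p, which shares its seed with miR-379-5p, and the mature miRNAs of the Mir376 genes in the RefSeq table are shown with the seed in capitals.
miR-1193-5p: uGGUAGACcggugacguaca
miR-376c-5p: gUGGAUAUuccuucuauguuua
miR-376b-5p: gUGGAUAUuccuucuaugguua
miR-376a-5p: gGUAGAUUcuccuucuaugagu
miR-376b-3p: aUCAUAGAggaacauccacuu
miR-376a-3p: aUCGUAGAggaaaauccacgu
miR-1193-5p has the seed of miR-379-5p, yet Mir379 was counted 93.3 times as often as Mir1193 in replicate 1 and 49.7 times in replicate 2. The Mir376 genes are a family, best known because their primary transcripts are edited from A to I by ADAR enzymes. Mir376c had 367 and 536 CPM, Mir376a 334 and 398 CPM and Mir376b 99.6 and 102 CPM. Mir376b was thus the lowest of the 3 in both animals, and Mir376c stood 3.69-fold and 5.26-fold above it. The hairpins of Mir376b and Mir376c share a run of 31 bases, longer than a miRNA read, so reads from that run could align to both places and go uncounted. Mir411 and Mir758 share 21 bases and Mir487b and Mir376b share 20. The other members share at most 16 bases in a row with any other annotated miRNA hairpin outside their own place, on either strand. The mature sequences that RefSeq holds for these 5 members all differ, miR-376b-5p and miR-376c-5p by a base near the end. A read that spans such a difference does not lie within a shared run. The counts of Mir376b, Mir376c, Mir411, Mir758 and Mir487b are uncertain to the extent that reads fell within the shared runs, which is not known.

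A short sequence recurred in the hairpins of the cluster. The 7 letters UUCGCUU stood in 10 of the 39 member hairpins (25.6%) and in 3 of the 2163 other miRNA hairpins of the annotation (0.139%), or in 0.590% of all 2202. The overlapping CGCUUUA stood in 7 members (17.9%) and in 0 of the others. On the opposite strand of the hairpins UUCGCUU was found in none of the members or others, and CGCUUUA in 1 member, Mir381, and in 3 others. The letters were picked after the sequences were seen, so these shares are a description with no test. Altogether 12 members held either, 5 held both, and 11 of the 12 were detected. RefSeq hairpins of both high and low members are shown, with CGCUUUA, or UUCGCUU where CGCUUUA is lacking, in capitals.
Mir411 hairpin: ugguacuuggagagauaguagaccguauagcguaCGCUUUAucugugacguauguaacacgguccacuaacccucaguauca
Mir382 hairpin: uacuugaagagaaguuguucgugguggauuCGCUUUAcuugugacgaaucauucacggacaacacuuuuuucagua
Mir154 hairpin: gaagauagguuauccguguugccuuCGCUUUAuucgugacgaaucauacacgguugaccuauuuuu
Mir543 hairpin: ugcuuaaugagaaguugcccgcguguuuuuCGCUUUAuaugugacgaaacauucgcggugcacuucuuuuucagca
Mir410 hairpin: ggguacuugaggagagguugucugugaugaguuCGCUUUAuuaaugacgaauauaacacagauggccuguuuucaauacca
Mir487b hairpin: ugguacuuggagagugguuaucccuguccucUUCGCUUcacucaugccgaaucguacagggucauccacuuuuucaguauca
Mir369 hairpin: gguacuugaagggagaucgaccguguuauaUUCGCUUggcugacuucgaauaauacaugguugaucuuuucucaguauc
Mir323 hairpin: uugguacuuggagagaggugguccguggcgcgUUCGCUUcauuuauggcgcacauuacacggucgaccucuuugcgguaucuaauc
In 11 of the 12 hairpins the capital letters ran across the end of the 5p arm into the loop, the part of the hairpin where the arms are cut apart. Mir329 was the exception, with the letters near the start of its hairpin. The detected members with CGCUUUA ranged from 26.9 CPM (Mir410) to 5802 CPM (Mir411) in mean, so the letters marked neither high nor low members. Several members of this cluster are known to descend from tandem copies of 1 ancestral hairpin.

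Hairpins of the cluster were poor in G and C, with a median of 43.6% beside 50.8% over all 2202 miRNA genes. They ranged from 29.1% at Mir376c to 72.3% at Mir3072. Across the 33 detected members Spearman's rho of the mean level and the GC content of the hairpin was -0.03. These points share both libraries and are not independent. The hairpins were 61 to 123 bases long. Neighbouring hairpins lay a median of 556 bases apart, and 18 of the 38 gaps were under 500 bases.

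At single members the 2 libraries differed far more than at the whole cluster. Replicate 1 was set against replicate 2 by an exact binomial test on the counts of each gene, with library sizes scaled by TMM (trimmed mean of M values), over 389 miRNA genes with Benjamini-Hochberg adjustment at 0.05. The test covers counting error only, and compares these 2 libraries. Of the 33 tested members 7 were called higher in replicate 1 (21.2%), where 30.8% of all tested miRNA genes were. Lower in replicate 1 were 16 members (48.5%), where 28.3% of all tested genes were. The other 10 were not called. With total counts as the scale, 5 were higher and 23 lower, and the median over all tested genes moved from 0.01 to -0.19. On that scale 64.8% of all tested genes had the lower CPM in replicate 1, and the share of them called is not given. With TMM scaling the median log2 ratio (replicate 1 over replicate 2) was -0.27 over the members and 0.01 over all tested genes. A ratio below 0 was found in 25 of the 33 members and in 48.6% of all tested genes. The exact test of edgeR was also run, with a common dispersion that allows for spread between animals. It called 0 members and 4 of all 389 tested genes. At an unadjusted p under 0.05 in this test were 1 member, Mir487b, and 16 of all tested genes. The dispersion was estimated from the same differences between the 2 libraries that were then tested. Ratios within the bulk of those differences could hardly be called, so 0 calls do not show that the animals were alike. The libraries also differed in the red blood cell list given above, higher in replicate 1. No list for heart and skeletal muscle was used, but Mir499 had 423 CPM in replicate 1 and 23.1 in replicate 2. Mir208b had 204 and 40.8 CPM and Mir208a 9.39 and 0.900 CPM, while Mir206 went the other way, with 81.7 and 389 CPM. The part of these differences in the ratios was not tested.

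**Figure D3:**
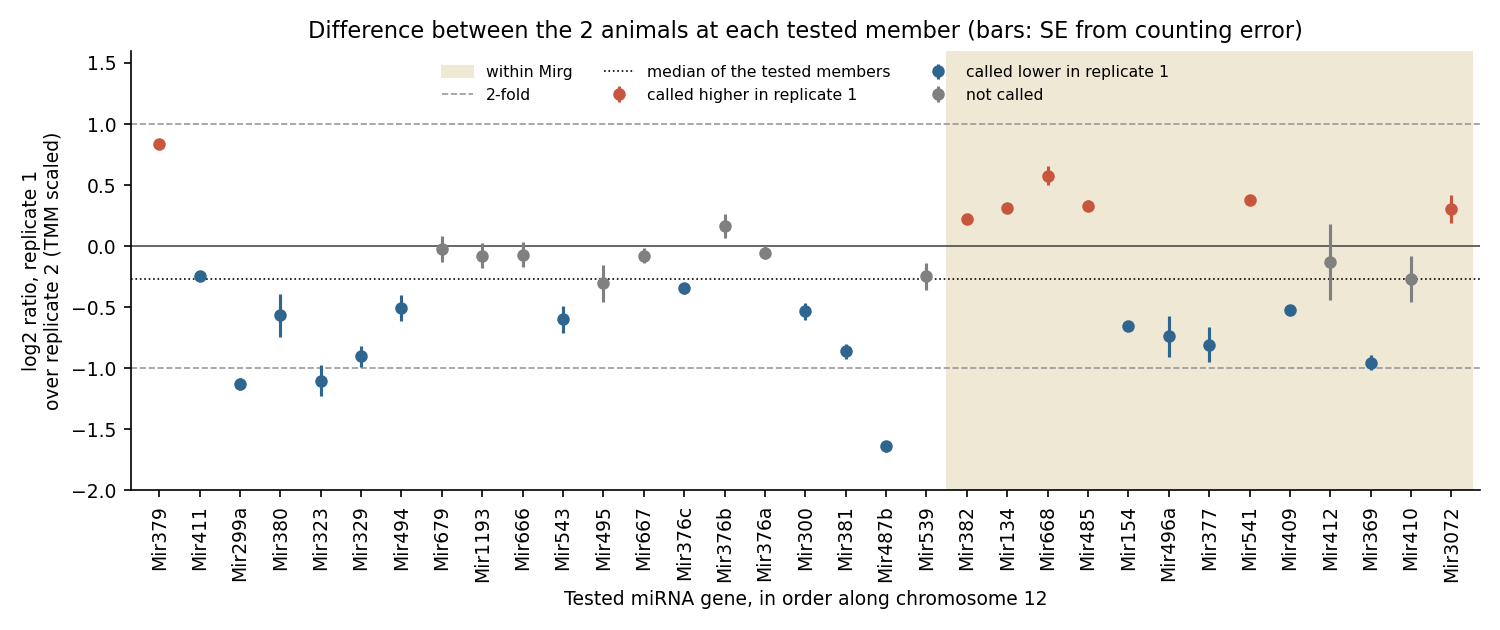
Log2 ratio of replicate 1 over replicate 2 after TMM scaling for each of the 33 tested members in order along the chromosome, with the SE from counting error as bars. Mir379 and 6 members inside the shaded Mirg gene are called higher in replicate 1, and Mir487b, Mir299a and Mir323 lie below the 2-fold line.

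The largest ratio in the upward direction was at Mir379, the highest member by mean CPM but not in replicate 2. Mir379 had a log2 ratio of 0.83 (SE 0.01 from counting error), so its count was 1.78-fold higher in replicate 1, and its adjusted p was too small for the software to tell from 0. Mir668, with 189 and 146 CPM, had 0.58 (SE 0.08, adjusted p = 2.11e-13 by the exact binomial test), and Mir541 had 0.37 (SE 0.01, adjusted p = 4.38e-160). Mir382, one of the 5 highest by mean CPM, had 0.22 (SE 0.01, adjusted p = 5.85e-53), and its CPM of 4845 and 4777 were nearly level before TMM scaling. Mir485 (0.33), Mir134 (0.31) and Mir3072 (0.30) were the others called higher. With total counts as the scale the calls of Mir382 (0.02) and Mir3072 (0.10) were lost. Except for Mir379, every member called higher in replicate 1 lay within Mirg.

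Mir411, next to Mir379 and alike in sequence, had a ratio of the other sign, -0.24 (SE 0.01, adjusted p = 9.15e-78 by the exact binomial test). Mir409 had -0.52 (SE 0.03, adjusted p = 6.19e-68). Past 2-fold were 3 of the 33 members (9.09%), where 14.4% of all tested genes were, and all 3 were lower in replicate 1. With total counts as the scale, 7 members and 74 of the 389 tested genes were past 2-fold. Mir487b had 1340 counts in replicate 1 and 2780 in replicate 2 and a log2 ratio of -1.64 (SE 0.05, adjusted p = 3.24e-277), 3.12-fold higher in replicate 2. Mir299a had 254 and 639 CPM and a ratio of -1.13 (SE 0.05, adjusted p = 4.73e-120). Mir323 had 212 and 303 counts and a ratio of -1.10 (SE 0.13, adjusted p = 2.90e-17). Their mature sequences in the RefSeq table, with seeds in capitals, follow.
miR-487b-5p: uGGUUAUCccuguccucuucg
miR-299a-5p: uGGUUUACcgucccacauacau
miR-299a-3p: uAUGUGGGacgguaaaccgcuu
miR-323-5p: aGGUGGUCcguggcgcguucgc
miR-323-3p: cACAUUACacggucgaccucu
None of these seeds is shared with another of the 71 mature sequences of the cluster, which include no 3p sequence for Mir487b. The seed of miR-299a-3p is also that of miR-299b-3p, whose gene lies on the opposite strand at the same place. Mir369 (-0.95), Mir329 (-0.90) and Mir381 (-0.86) came next.

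Counts of calls by place along the cluster are set beside the 30.8% called higher and 28.3% called lower of all tested genes. Within Mirg 6 of 13 tested members were higher in replicate 1, 5 lower and 2 neither, with a median log2 ratio of -0.13. Of these 6, Mir382 and Mir3072 were no longer called with total counts as the scale. Before Mirg 1 of 20 was higher, 11 were lower and 8 neither, with a median of -0.33. This split was looked at after the values were seen and was not tested. The first 4 hairpins of Mirg, Mir382, Mir134, Mir668 and Mir485, were all higher in replicate 1. Further on, Mir154, Mir496a, Mir377, Mir409 and Mir369 were lower, Mir541 and Mir3072 were higher, and Mir412 and Mir410 were not called. Members that lie side by side and are thought to come from shared transcripts thus had ratios of either sign. Mir679, Mir1193, Mir666 and Mir667 all lay between -0.08 and -0.02 and were not called.

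**Figure D4:**
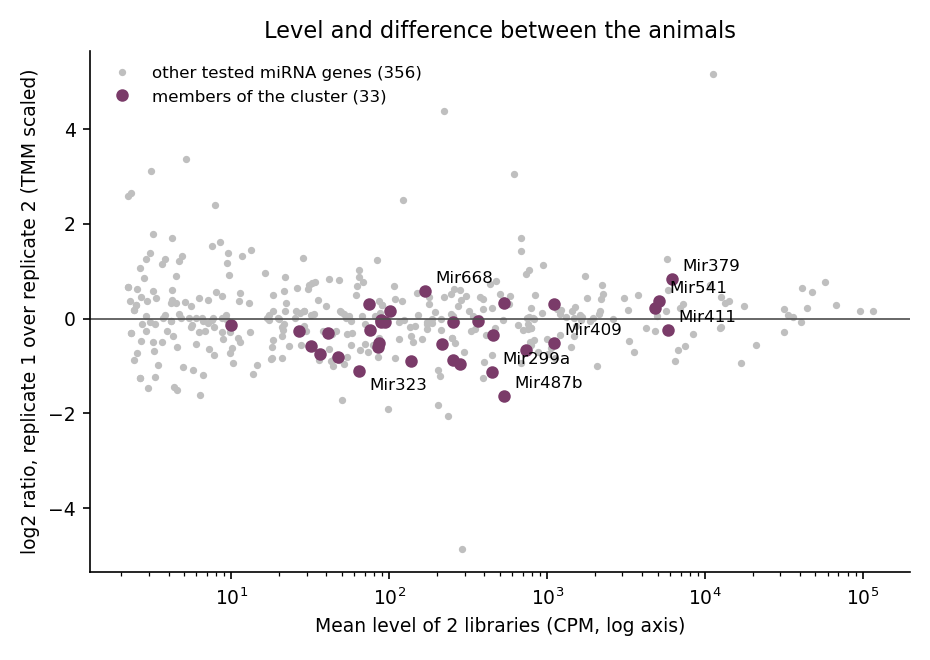
Log2 ratio between the animals against the mean level (CPM, log axis) for every tested miRNA gene, with the 33 members of the cluster as dark points. The members lie within the cloud of the other genes, from -1.64 at Mir487b to 0.83 at Mir379.

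Neither level nor base composition ordered the ratios closely. Across the 33 tested members Spearman's rho of the log2 ratio was 0.24 with the mean CPM and 0.19 with hairpin GC content, beside 0.01 and 0.01 over all 389 tested genes. The order of levels was similar in both animals: CPM of the 33 detected members in the animals had a Spearman's rho of 0.97. These are correlations across genes of the same 2 libraries, given as descriptions.

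The nearest other miRNAs of the region, 22 genes on either strand around Rtl1 at 109544541 to 109682273, were set beside the cluster. Of these, 17 were detected and tested, and they took 2.62% of the miRNA counts in replicate 1 and 2.58% in replicate 2. The highest was Mir127, which lies antisense to Rtl1 and is known to repress it, at 18104 and 17288 CPM, above every member of the cluster in both animals. Of the 17, 6 were called higher in replicate 1 and 5 lower, where 30.8% and 28.3% of all tested genes were. Their median log2 ratio was 0.01. The medians of -0.27 in the cluster and 0.01 on the Rtl1 side were not tested against each other.

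Counting by strand decided the values of 5 members. Mir299a, Mir380, Mir376a, Mir539 and Mir409 overlap a miRNA gene annotated on the opposite strand, and all 5 had 0 counts in the column that ignores strand, in both libraries. On their own strand they held 8680 counts in replicate 1 and 8469 in replicate 2. The 5 genes on the opposite strand had 3 counts in all in replicate 1 and 0 in replicate 2, which is no more than the limit that a count of 0 allows.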

How the data were processed

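Small RNA libraries of 2 adrenal glands were examined. The values deposited by the authors are counts of reads at each miRNA gene, in whole numbers, for mm10 and GENCODE M21, with no normalization, per the files that describe each library. The aligner, the trimming and the handling of reads that align to several places are not stated in the labels. The meaning of the 3 count columns was read from the values, and the column taken as reads on the gene's strand was used. The 4 leading rows name no gene. Their part of all reads was 66.2% in replicate 1 and 69.0% in replicate 2, and they stayed out of library sizes and tests.

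All identifiers matched GENCODE M21. CPM are counts per 1000000 counts at miRNA genes. With a single group there is no contrast for a quasi-likelihood test. Each gene with a mean of at least 10 counts was instead tested between the libraries by an exact binomial test (two-sided), whose expected share came from TMM effective library sizes (edgeR 4.0.16). P-values were adjusted over all 389 genes by Benjamini-Hochberg, with calls at 0.05. Log2 ratios used a pseudocount of 0.5, and each SE holds counting error alone. The members follow from position, but the cluster and the lists were chosen with earlier results of these data known. Full statistics were given for the 5 highest members and for the 3 largest ratios in each direction among members with 100 or more counts in mean. Alternatives covered DESeq2 1.42.0 size factors, total counts, other filters, a pseudocount of 5, unstranded counts and single libraries. Python 3.11.15, SciPy 1.17.1, R 4.3.3 and matplotlib 3.10.9 were used.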

Additional observations from a re-analysis of the deposited data

How the results depend on the processing

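No paired analysis was possible because all samples belong to 1 group. The share of the cluster was 2.88 to 3.01% with either library alone. It was 3.26% with counts that ignore strand, a smaller total, and 6.99% when the 10 most abundant genes were left out of the total. The 5 highest members took 74.7 to 82.9% of its counts with either library alone, chosen anew in each, and 84.0% with unstranded counts, where 5 members have no counts; the detected members were then 28. With total counts as the scale, which moved the median of all tested genes to -0.19, the median of the members was -0.47, 7 members and 74 of all tested genes were past 2-fold, 5 were called higher in replicate 1 and 23 lower, and Mir382 and Mir3072 were no longer called. Scaled by the summed counts of the cluster, an alternative chosen after seeing the data, the median of the members was -0.40, and 6 were higher and 20 lower. With DESeq2 size factors 7 were higher and 17 lower. The shares of all tested genes called under these other scales are not given, so these counts of members have no background beside them. edgeR's exact test with the common dispersion called 0 members higher and 0 lower and 4 of all 389 tested genes, with a smallest adjusted p of 0.833 at Mir487b. It allows for spread between animals, which the binomial test does not, but that spread was estimated from the same differences that it tests. Mir376b, not called, went from 0.16 to -0.04 with total counts. No called member changed its sign under the scalings, filters, pseudocount or unstranded counts. Without Mir3072, also chosen after seeing the data, 6 members were higher and the share was 2.94%. Depth limits Mir758 and Mir544, whose few counts give no firm level, and with 2 animals the spread of any member is poorly known.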
